A study of Mus musculus with 8 samples.

Results

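Noradrenaline reaches brown fat through adrenergic receptors, whose signal passes to G proteins, adenylyl cyclases, cyclic AMP (cAMP), protein kinase A (PKA) and the transcription factor CREB. The 41 genes described here carry or damp that signal and were chosen by name. The rule uses no measured value, but the genes were chosen with earlier results of these data known. They are 6 adrenergic receptor genes, 2 adenosine receptor genes, 4 G protein alpha subunits, 7 adenylyl cyclases, 2 catalytic and 4 regulatory subunits of PKA, 2 PKA anchors, 5 phosphodiesterases, 2 factors of the CREB family, 3 CREB coactivators and 4 genes that damp receptors or G proteins. All 41 were found among the 54532 genes of the deposited table. The filter on low values, a mean of at least 0.5 FPKM (fragments per kilobase of a gene's length, corrected for depth) over the 8 libraries, was passed by 38 of them.

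The study sequenced RNA from mouse brown adipose tissue, which makes heat from lipid, in 4 samples labelled WT and 4 labelled OGTBKO. OGTBKO stands for tissue of mice that lack Ogt in brown adipocytes, and Ogt encodes the enzyme that puts O-GlcNAc on proteins inside the cell. Animals of both groups lived at 23 °C on standard chow, were induced after 8 weeks with an agent spelled "gomaxifen" in the labels, and gave their tissue 2 months later, trimmed of nearby white fat. The WT mice were thus induced too, and both groups carry the same batch label. The promoter that drove the deletion was not given in the sources used here, nor were the exons removed or whether WT mice carried a recombinase. The labels give adipocytes as the cell type, but the tissue was taken whole. Samples are numbered without a statement that each came from its own animal, so the tests measure only how these samples spread, and that spread may be technical.

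As background, noradrenaline from sympathetic nerves binds beta receptors on brown adipocytes, the stimulatory G protein turns on adenylyl cyclase, and the cAMP made releases the catalytic subunits of PKA from their regulatory subunits. PKA phosphorylates lipolytic proteins and CREB, which starts transcription of thermogenic genes such as Ucp1, the uncoupling protein that turns the proton gradient of mitochondria into heat. Phosphodiesterases destroy cAMP, inhibitory G proteins hold cyclases back, and receptor kinases, arrestins and RGS proteins end the receptor's signal.

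Ogt itself, the check on the labels, stood at 33.1, 24.7, 23.9 and 22.5 FPKM in WT 1 to WT 4 and at 10.7, 14.5, 12.8 and 11.8 FPKM in OGTBKO 1 to OGTBKO 4. Each OGTBKO library lay below each WT library, and the log2 change was -1.03 ± 0.14 (SE, limma adjusted p = 0.00511). Changes are given throughout as OGTBKO against WT on log2(FPKM + 0.5), and a gene is called where its limma p, adjusted by Benjamini-Hochberg over the 13171 genes tested, is under 0.05. Libraries held from 13393962 to 15897920 reads assigned to genes, of which mitochondrial genes took 27.2% to 39.4% in WT and 25.2% to 30.2% in OGTBKO. Of 16 brown adipocyte markers 2 were called higher (Cox7a1 and Lipe) and 2 lower (Ucp1 and Prdm16), while of 9 white fat markers present in the table, 7 of them tested, 2 were called higher (Lep and Sncg) and the median change was 1.09. The summed level of these white fat markers was 129.7, 61.7, 55.1 and 70.6 FPKM in WT and 169, 159, 210.3 and 189.9 FPKM in OGTBKO, without overlap (Tcf21 was at 0 throughout), and their part in the results of the members was not tested. Retn, the largest part of that sum in each library, was not called and overlapped (26.1 to 91.3 FPKM in WT, 73.7 to 144.7 FPKM in OGTBKO). Of the other uncalled markers tested, Nnat, Hoxc8 and Mest had changes of 1.29, 0.59 and 0.042, and Agt one of -0.21. Of the pericyte and smooth muscle markers 1 of 10 tested was called higher (Kcnj8), of the fibroblast and progenitor markers 1 of 10 was called lower (Ly6a), and of the muscle and nerve markers tested (11 and 4) limma called none. These marker counts stand beside 8.11% of all genes tested called higher and 7.46% called lower. Over 19 other analyses the calls of Prdm16, Sncg and Ly6a were lost in 10, 8 and 8. Those of Ucp1 and Lipe were lost in 3 each, those of Lep and Kcnj8 in 1 each and that of Cox7a1 in 0. WT 1 and OGTBKO 1 held the most skeletal muscle transcripts. The summed level of 12 muscle markers was 561, 0.950, 0.386 and 41.2 FPKM in WT and 1684, 1.10, 6.25 and 1.04 FPKM in OGTBKO. Results that rest on these libraries are given below with and without them. They were not the only libraries that stood apart: WT 3 differed most from the rest of its group and had the highest mitochondrial share (39.4%).

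Across the 38 genes tested, 5 were called and all 5 were lower in OGTBKO: the cyclase genes Adcy6 and Adcy4, the phosphodiesterase genes Pde3b and Pde4d, and Creb1. No member was called higher by limma, although 6 members were higher and 14 lower at an unadjusted p under 0.05, and limma voom on reads recovered from the FPKM values called 0 higher and 7 lower. Calls over all genes tested came to 15.6%, with 8.11% higher and 7.46% lower, so 5 of 38 (13.2%) is near the background for any call, and 13.2% stands beside 7.46% for lower calls. Of the 38, 24 had a change below 0 (63.2%, against 50.2% of all genes tested), and their median change was -0.18 against -0.0021 over all genes. Left out 1 at a time, WT 2, WT 4, OGTBKO 2 and OGTBKO 3 brought the lower calls to 3, 3, 2 and 2, while without WT 1, WT 3 or OGTBKO 1 there were 1, 3 and 2 higher calls. Without both libraries numbered 1 there were 6 lower calls and 1 higher call. The libraries of the groups did not overlap for 11 members, 8 of them lower and 3 higher in OGTBKO, where 22.5% of all genes tested did not overlap. In tissue, fewer cells of a type and less RNA per cell cannot be told apart.

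**Figure D1:**
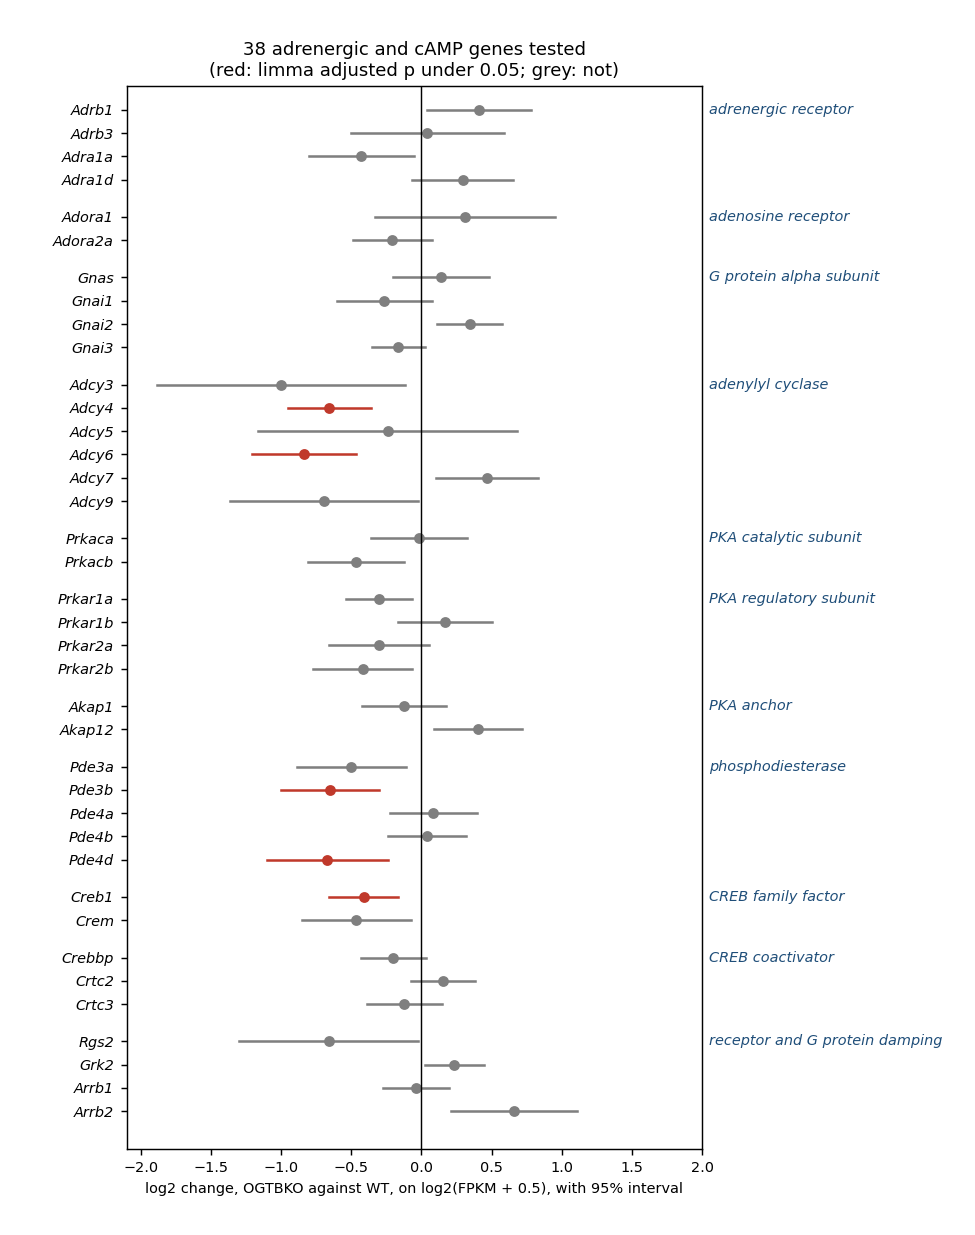
Log2 change in OGTBKO against WT of each of the 38 genes tested, with its 95% interval from limma (4 libraries a group), in rows ordered by role. Red points mark the 5 called genes (Adcy4, Adcy6, Pde3b, Pde4d and Creb1), all left of 0, and grey points mark the 33 genes that were not called.

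Among the beta receptors, Adrb3, the receptor that dominates in rodent brown adipocytes, showed no call in either direction. Its level was 112, 74.7, 48.0 and 59.3 FPKM in WT 1 to WT 4 and 70.6, 69.6, 88.9 and 61.7 FPKM in OGTBKO 1 to OGTBKO 4. The groups overlapped over most of their range, with WT 1 highest and WT 3 lowest of all, and the change was 0.043 ± 0.24 (95% interval -0.50 to 0.59, adjusted p = 0.925). The sign was negative without WT 3, WT 4 or OGTBKO 3 (-0.14, -0.035 and -0.057) and with the GC trend removed (-0.13). Adrb3 shares its span with Gm45470, an antisense gene with a mean of 2.53 FPKM against 73.1 FPKM for Adrb3, and the sources used here do not say whether counting used strand, so reads of these genes cannot be told apart. The same holds for Adra1d, Adcy3, Akap1 and Pde3a, each of which overlaps a gene on the opposite strand with a mean of 0.555 to 1.38 FPKM.

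Adrb1, the receptor with a high affinity for noradrenaline, stood at 9.53, 13.3, 10.2 and 8.45 FPKM in WT and 12.5, 12.7, 12.6 and 17.9 FPKM in OGTBKO. OGTBKO 4 was the highest, the other 3 OGTBKO libraries lay within the WT range, and the change of 0.41 did not pass (adjusted p = 0.119). In every library Adrb3 lay above Adrb1 per gene length, with no overlap between their ranges.

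Of the alpha receptors, Adra1a, which couples to calcium release rather than cAMP, stood at 11.6, 13.2, 14.2 and 14.4 FPKM in WT and 12.1, 8.25, 7.53 and 11.9 FPKM in OGTBKO. OGTBKO 2 and OGTBKO 3 lay below all other libraries, OGTBKO 1 and OGTBKO 4 lay among the WT libraries, and the change was -0.43 (adjusted p = 0.108). Adra1d, of the same class, ranged from 4.80 to 7.81 FPKM in WT and from 5.98 to 8.02 FPKM in OGTBKO, with a change of 0.30 that became -0.057 with the GC trend removed and 0.44 without WT 3, where it was called higher (adjusted p = 0.0371). Adra1b (0.0362 to 0.213 FPKM in WT, 0.0493 to 0.162 FPKM in OGTBKO) and Adra2a, an inhibitory receptor of white fat (0 to 0.124 FPKM in WT, 0.0439 to 0.128 FPKM in OGTBKO), were under the filter, with 2 to 10 and 0 to 8 reads per library, and had no test. The adenosine receptor genes Adora1, which inhibits cyclase, and Adora2a, which stimulates it, had changes of 0.31 (adjusted p = 0.488) and -0.21 (adjusted p = 0.287). Adora1 in WT 3 was 27.3 FPKM, above the other WT libraries at 10.3 to 12.2 FPKM, and without it Adora1 was called higher (0.62, adjusted p = 0.0329). Adora2a was called lower once the GC trend was removed (-0.44, adjusted p = 0.0353).

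The G protein genes held 1 stimulatory and 3 inhibitory alpha subunits, and none was called. Gnas, the stimulatory subunit that beta receptors activate, stood at 6.04, 6.08, 6.96 and 7.75 FPKM in WT and 10.1, 6.62, 6.29 and 7.12 FPKM in OGTBKO (change 0.14, 95% interval -0.21 to 0.48, adjusted p = 0.571). OGTBKO 1 was the highest, and the change was -0.00071 without it and -0.045 without both libraries numbered 1. Gnas is an imprinted locus with several overlapping transcripts, and its gene length of 11186 bases spreads the reads of all of them over 1 value.

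Gnai2, an inhibitory subunit, stood at 27.5, 30.4, 30.6 and 34.2 FPKM in WT and 35.6, 41.7, 41.2 and 37.5 FPKM in OGTBKO. Each OGTBKO library lay above each WT library, yet the change of 0.34 ± 0.10 missed the threshold (adjusted p = 0.0519), and it was 0.18 with the GC trend removed (adjusted p = 0.277). Gnai3, a close relative, lay the other way in each library, at 20.1, 19.2, 18.0 and 18.0 FPKM in WT and 16.8, 16.5, 16.4 and 17.3 FPKM in OGTBKO, a change of -0.16 (adjusted p = 0.205). Gnai1 had a change of -0.27 (adjusted p = 0.252). The summed level of the 3 inhibitory subunits was 73.1 to 77.9 FPKM in WT and 74.2 to 86.0 FPKM in OGTBKO, while the share of Gnai2 in that sum was 35.3, 39.7, 41.9 and 45.3% in WT and 47.3, 48.5, 54.6 and 50.6% in OGTBKO. The composition of the sum thus differed without overlap while its size overlapped, and no test was made of either.

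Adenylyl cyclases, which make cAMP, held the lowest changes: 5 of the 6 tested were below 0, 2 were called lower, and their median change was -0.67. Over all genes tested 50.2% were below 0 and 7.46% were called lower. Adcy6, a cyclase that calcium inhibits, at chr15:98589973-98610076 on the minus strand (mm10, ENSMUSG00000022994), stood at 20.4, 26.9, 26.1 and 30.6 FPKM in WT and 18.7, 12.1, 14.0 and 12.8 FPKM in OGTBKO. Each OGTBKO library lay below each WT library, with WT 1 and OGTBKO 1, the libraries with the most muscle transcripts, nearest to each other. The means were 26.0 ± 4.21 and 14.4 ± 2.97 FPKM (SD, 4 libraries each), and on the log2 scale Adcy6 fell by 0.84 ± 0.16 (SE, adjusted p = 0.0138). Without both libraries numbered 1 the change was -1.08 (adjusted p = 0.00683). The call held in 18 of 19 other analyses, and with the replicate number as a block the adjusted p was 0.0558.

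Adcy4, a cyclase that G protein beta-gamma subunits can stimulate, at chr14:55769057-55784095 on the minus strand (mm10, ENSMUSG00000022220), stood at 5.26, 6.74, 5.03 and 6.86 FPKM in WT and 3.15, 3.80, 4.10 and 3.32 FPKM in OGTBKO. Its groups did not overlap either, and it fell by 0.66 ± 0.13 on the log2 scale, from a mean of 5.98 ± 0.960 to 3.59 ± 0.433 FPKM (SD, 4 libraries each, adjusted p = 0.0146). This call also held in 18 of 19 other analyses, among them that without both libraries numbered 1 (-0.66, adjusted p = 0.0311), and was lost where FPKM was rescaled to the library total (-0.55, adjusted p = 0.0979). Adcy4 is known in endothelium as well as in fat. The 12 endothelial markers had a median change of -0.0084, a summed level of 153 to 196 FPKM in WT and 180.5 to 192 FPKM in OGTBKO, and 1 call, Cdh5, which rose by 0.35 (adjusted p = 0.0413). Of all genes tested 8.11% were called higher, and the call of Cdh5 was lost in 13 of 19 other analyses. Single markers lay both ways, with changes of 0.47 for Erg, 0.41 for Robo4 and -0.38 for Flt1, and the part of endothelial cells in the level of Adcy4 was not tested.

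Adcy3, the cyclase that cold induces in brown fat, had the lowest change of all 38 genes but a wide spread. It stood at 12.8, 35.4, 13.7 and 43.0 FPKM in WT and 15.6, 11.1, 8.63 and 10.3 FPKM in OGTBKO. WT 2 and WT 4 lay above all other libraries, while WT 1 and WT 3 lay below OGTBKO 1, and the change of -1.0 ± 0.39 was not called (adjusted p = 0.111). Dio2, the deiodinase that activates thyroid hormone in cold brown fat, stood at 37.9, 59.0, 18.5 and 119 FPKM in WT and 13.9, 28.2, 24.0 and 34.9 FPKM in OGTBKO and was also highest in WT 4 and WT 2 (change -0.96, adjusted p = 0.222). The order differed within OGTBKO, where OGTBKO 1 was the highest for Adcy3 and the lowest for Dio2. Elovl3 was also highest among WT libraries in WT 4 and WT 2 (109 and 84.0 FPKM). Its change was the other way (1.75, adjusted p = 0.111). A shorter transcript of Adcy3 is known in brown fat, and values per gene do not separate it from the full one.

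Adcy9 ranged from 4.61 to 11.3 FPKM in WT and from 3.05 to 7.55 FPKM in OGTBKO, a change of -0.69 (adjusted p = 0.142). With the libraries numbered 1 left out it passed as lower (-1.14, adjusted p = 0.0177), as it did without WT 1 alone (-0.93, adjusted p = 0.0450). Adcy7, a cyclase of blood cells, was the only one of the 6 tested here above 0 (0.47, adjusted p = 0.0767) and passed as higher without OGTBKO 1 (0.58, adjusted p = 0.0415). Adcy5 had the widest interval of the 38 (-1.16 to 0.68). Adcy2 was under the filter and stood at 0.719, 0.0995, 0.112 and 0.116 FPKM in WT and 0.839, 0.103, 0.0660 and 0.0341 FPKM in OGTBKO. It was high in WT 1 and OGTBKO 1 alone, the libraries with the most muscle transcripts, among them Acta1, skeletal muscle actin, at 255 FPKM in WT 1 and 625 FPKM in OGTBKO 1. In WT 4, with a muscle marker sum of 41.2 FPKM, Adcy2 was 0.116 FPKM. The part of muscle in the level of Adcy2 was not tested.

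The summed level of the 7 cyclase genes was 52.9, 83.6, 59.2 and 93.1 FPKM in WT and 52.3, 36.9, 35.4 and 35.5 FPKM in OGTBKO. OGTBKO 1 lay just below WT 1, and the other 3 OGTBKO libraries lay well under all WT libraries. Adcy6 held 32.1% to 44.0% of the sum in WT and 32.6% to 39.5% in OGTBKO, so its share overlapped while its level did not.

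**Figure D2:**
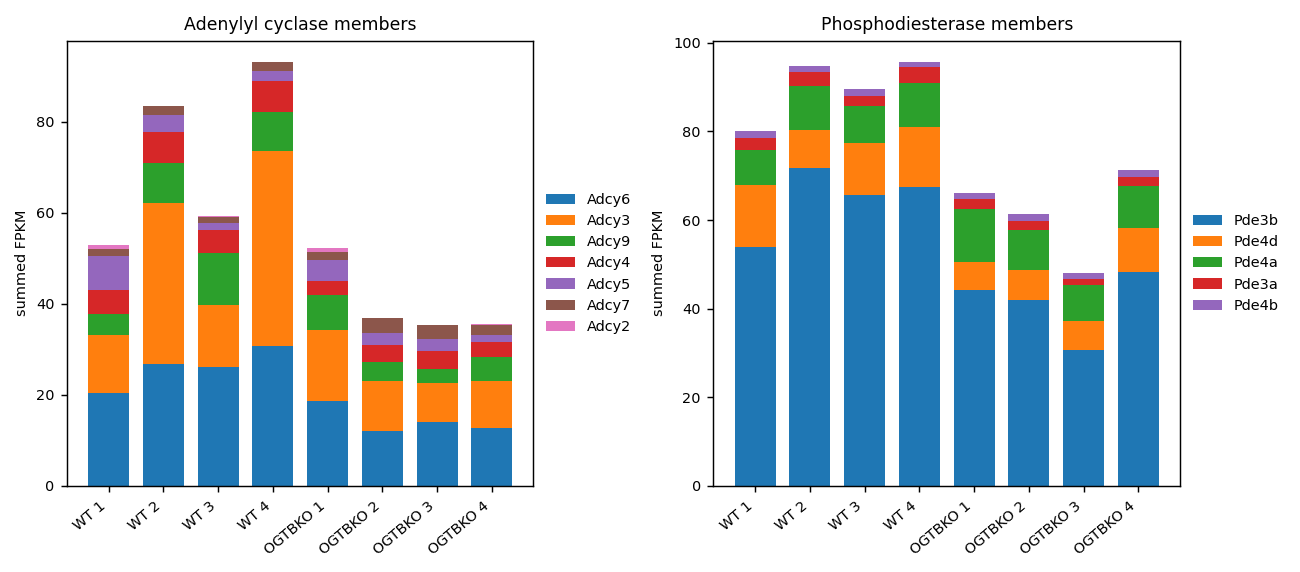
Summed FPKM of the 7 adenylyl cyclase genes (left) and the 5 phosphodiesterase genes (right) in each of the 8 libraries, with each gene as a part of the bar. The cyclase bars reach 52.9 to 93.1 FPKM in WT and 35.4 to 52.3 FPKM in OGTBKO, with Adcy3 filling most of the difference between WT libraries, and the phosphodiesterase bars reach 80.1 to 95.7 and 47.9 to 71.3 FPKM, most of it Pde3b.

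PKA genes gave no call, with median changes of -0.24 for the catalytic and -0.30 for the regulatory subunits. Prkaca, the main catalytic subunit, stood at 76.5, 105, 84.8 and 116 FPKM in WT and 108, 87.8, 84.9 and 92.8 FPKM in OGTBKO, with a change of -0.018 (95% interval -0.36 to 0.32, adjusted p = 0.952). Its groups overlapped, and the sign was positive with FPKM rescaled to the library total (0.097) and without WT 2, WT 4, OGTBKO 2 or OGTBKO 3 (0.034, 0.080, 0.0097 and 0.026). Prkacb, the other catalytic subunit, ranged from 8.78 to 13.7 FPKM in WT and from 7.04 to 9.00 FPKM in OGTBKO (-0.47, adjusted p = 0.0682), and passed as lower once the libraries numbered 1 were left out (-0.57, adjusted p = 0.0420) or WT 1 alone (-0.59, adjusted p = 0.0240).

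Prkar2b, the regulatory subunit that prevails in fat, was the most abundant of the 41 genes per length, at 379, 546, 484 and 485 FPKM in WT and 348, 371, 286 and 412 FPKM in OGTBKO. OGTBKO 4 lay above WT 1 and the other 3 OGTBKO libraries lay below all WT libraries, a change of -0.42 ± 0.16 (adjusted p = 0.101). Prkar1a, the regulatory subunit found in most cells, stood at 49.9, 60.2, 49.7 and 61.6 FPKM in WT and 45.4, 45.0, 43.4 and 44.9 FPKM in OGTBKO, with no overlap and a change of -0.30 ± 0.10 (adjusted p = 0.0814). The means were 55.3 ± 6.46 FPKM in WT and 44.7 ± 0.839 FPKM in OGTBKO (SD, 4 libraries each), so the OGTBKO libraries lay close together and the WT libraries did not. Prkar2a had a change of -0.30 (adjusted p = 0.220) and was called lower without OGTBKO 1, its highest library (-0.46, adjusted p = 0.0328), and without both libraries numbered 1 (-0.50, adjusted p = 0.0279). Prkar1b, under 1 FPKM in every library, had a change of 0.17 (adjusted p = 0.472).

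The summed FPKM of the 4 regulatory subunits over that of the 2 catalytic subunits was 5.11, 5.16, 5.50 and 4.39 in WT and 3.46, 4.35, 3.65 and 4.55 in OGTBKO. These ratios of transcripts overlapped only through WT 4 and OGTBKO 4, and no test was made of them.

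The 2 PKA anchors, proteins that tie PKA to places in the cell, were not called. Akap12 stood at 3.25, 3.02, 4.44 and 4.02 FPKM in WT and 5.97, 5.06, 4.54 and 4.50 FPKM in OGTBKO. The lowest OGTBKO library lay just above the highest WT library, with a change of 0.40 ± 0.14 (adjusted p = 0.0775), and without WT 3 Akap12 was called higher (0.49, adjusted p = 0.0434). Akap1, the anchor on mitochondria, had a change of -0.12 (adjusted p = 0.569).

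Phosphodiesterases, which end the cAMP signal, held 2 calls among 5 genes, both lower, with a median change of -0.50. Over all genes tested 7.46% were called lower, and 5 genes are too few to set against that share. Pde3b, which insulin activates in adipocytes, at chr7:114415281-114539251 on the plus strand (mm10, ENSMUSG00000030671), stood at 53.8, 71.7, 65.6 and 67.5 FPKM in WT and 44.3, 42.0, 30.8 and 48.2 FPKM in OGTBKO. Each OGTBKO library lay below each WT library, OGTBKO 3 lowest of all, and the means were 64.7 ± 7.67 and 41.3 ± 7.47 FPKM (SD, 4 libraries each). On the log2 scale Pde3b fell by 0.65 ± 0.15 (SE, adjusted p = 0.0260). The call held in 10 of 19 other analyses, among them that without both libraries numbered 1 (-0.78, adjusted p = 0.0297). It was lost without WT 2, WT 4, OGTBKO 2 or OGTBKO 3 (adjusted p = 0.0753, 0.0625, 0.0554 and 0.0581), and with the GC trend removed the change was -0.29 (adjusted p = 0.212).

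Pde4d, a cAMP-specific phosphodiesterase that forms complexes with beta-arrestins, at chr13:108449948-109953461 on the plus strand (mm10, ENSMUSG00000021699), stood at 14.2, 8.58, 11.7 and 13.5 FPKM in WT and 6.26, 6.73, 6.40 and 10.1 FPKM in OGTBKO. WT 2 lay below OGTBKO 4, so the groups overlapped, and the other 3 OGTBKO libraries lay below all WT libraries. Pde4d fell by 0.67 ± 0.19 on the log2 scale, from 12.0 ± 2.50 to 7.36 ± 1.81 FPKM (SD, 4 libraries each, adjusted p = 0.0447). Among the fits that left out 1 library each, it passed only without WT 2 (adjusted p = 0.0366) and without OGTBKO 4 (adjusted p = 0.0321), and without both libraries numbered 1 the change was -0.52 (adjusted p = 0.145). Without WT 1, WT 3, WT 4, OGTBKO 1, OGTBKO 2 or OGTBKO 3 its adjusted p lay between 0.0688 and 0.121.

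Pde3a, the close relative of Pde3b, stood at 2.74, 3.02, 2.26 and 3.48 FPKM in WT and 2.18, 2.11, 1.24 and 2.09 FPKM in OGTBKO. Its groups did not overlap, and the change of -0.50 ± 0.17 was not called (adjusted p = 0.0775). Pde4b, which cAMP induces in many cells, stood at 1.54, 1.38, 1.55 and 1.18 FPKM in WT and 1.42, 1.59, 1.25 and 1.59 FPKM in OGTBKO. Those values overlapped throughout, with a change of 0.039 (95% interval -0.24 to 0.31, adjusted p = 0.860). Pde4a had a change of 0.086 (adjusted p = 0.709), which was -0.086 without both libraries numbered 1.

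The summed level of the 5 phosphodiesterase genes was 80.1, 94.7, 89.5 and 95.7 FPKM in WT and 66.2, 61.4, 47.9 and 71.3 FPKM in OGTBKO. Every OGTBKO sum lay below every WT sum, and Pde3b held 67.2% to 75.7% of it in WT and 64.2% to 68.4% in OGTBKO. Genes that make cAMP and genes that destroy it were thus both among the called genes, and both groups of calls were lower.

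**Figure D3:**
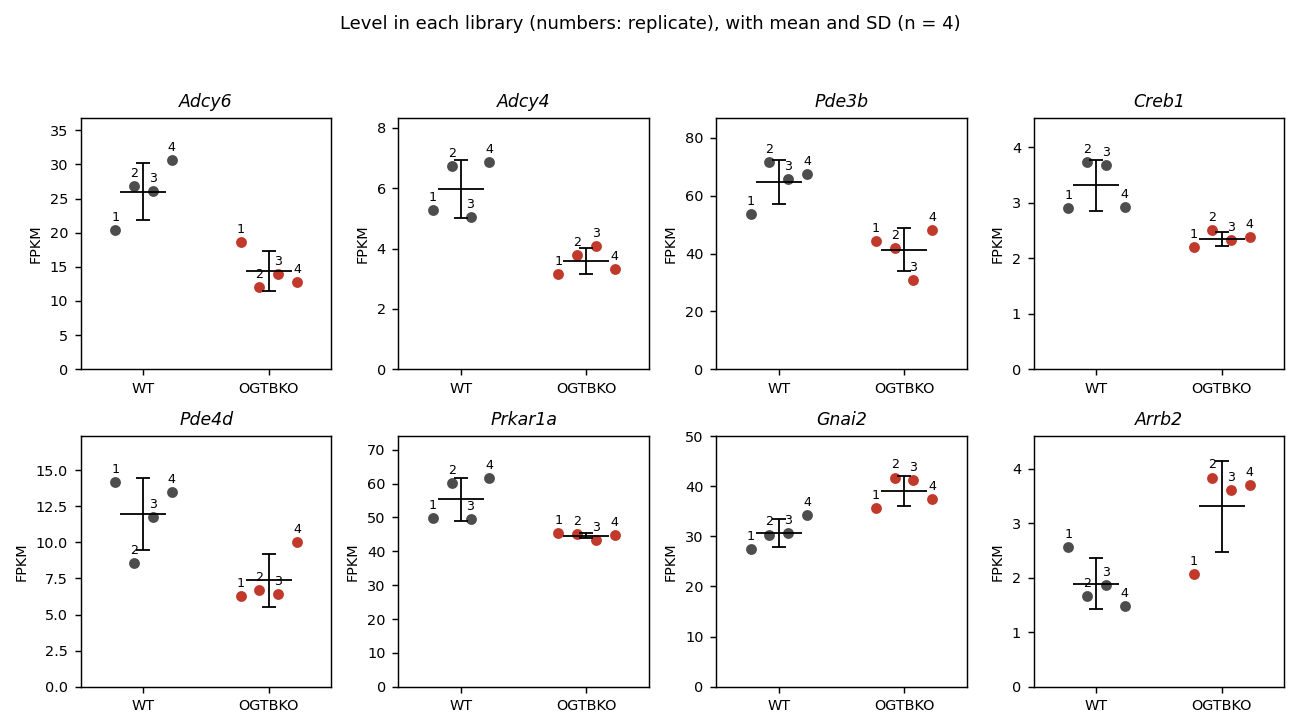
FPKM of 8 genes in each library (points, numbered by replicate, WT grey and OGTBKO red), with the mean and SD of the 4 libraries in each group as bars, on axes that start at 0. Adcy6, Adcy4, Pde3b, Creb1, Prkar1a and Gnai2 show no overlap between groups, while Pde4d overlaps through WT 2 and OGTBKO 4 and Arrb2 through WT 1 and OGTBKO 1.

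CREB family genes closed the chain with 1 lower call among 2 genes, where 7.46% of all genes tested were called lower. Creb1, the factor that PKA phosphorylates, at chr1:64532645-64604548 on the plus strand (mm10, ENSMUSG00000025958), stood at 2.90, 3.74, 3.67 and 2.93 FPKM in WT and 2.20, 2.50, 2.32 and 2.38 FPKM in OGTBKO. No library of OGTBKO reached the lowest of WT, and the means were 3.31 ± 0.457 and 2.35 ± 0.123 FPKM (SD, 4 libraries each). On the log2 scale Creb1 fell by 0.41 ± 0.11 (SE, adjusted p = 0.0363). Among the fits without 1 library, it passed only without WT 1 (adjusted p = 0.0312) and WT 4 (adjusted p = 0.0498). Without WT 2, WT 3, OGTBKO 1, OGTBKO 2, OGTBKO 3 or OGTBKO 4 the adjusted p lay between 0.0596 and 0.103, and without both libraries numbered 1 the change was -0.44 (adjusted p = 0.0543). With the GC trend removed it was -0.20 (adjusted p = 0.203).

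Crem, whose gene also gives rise to a short repressor that cAMP induces, stood at 3.87, 3.27, 2.07 and 3.61 FPKM in WT and 1.82, 2.45, 2.01 and 2.30 FPKM in OGTBKO. WT 3 lay among the OGTBKO libraries and the other 3 WT libraries above all of them, a change of -0.46 ± 0.17 (adjusted p = 0.0995), and without WT 3 it was called lower (-0.63, adjusted p = 0.0155). Values per gene do not separate the repressor from the full transcripts. Crebbp, the histone acetyltransferase that binds phosphorylated CREB, stood at 2.74, 2.81, 3.36 and 2.76 FPKM in WT and 2.60, 2.21, 2.44 and 2.65 FPKM in OGTBKO, without overlap but by a small margin (change -0.20, adjusted p = 0.210). The coactivators Crtc2 and Crtc3, which enter the nucleus when dephosphorylated, had changes of 0.15 and -0.12 and were not called (adjusted p = 0.318 and 0.513).

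Because CREB ends the chain and binds a known motif, the promoters of the members were searched for it, in RefSeq windows of 250 bases before to 50 after each annotated start (GRCm38.p6). The search used the letters TGACGTCA, which read the same on both strands, and the shorter core TGACG, on either strand and also where it lies inside the longer motif. Windows were found for 27 of the 41 genes, 55 in all, and 14 of the 27 (51.9%) held the core, against 23.0% of all genes in the table. Per window the share was 32.7% for the members and 20.8% over all 32851 windows. The genes differ in their number of windows, and the full table includes genes that brown fat does not express, so these shares are a description without a test. Only Prkar1a among the 27 held the longer motif, which 1.79% of all windows and 2.03% of all genes hold. The windows of Adcy4, Creb1 and Pde4d held neither set of letters, and the called genes Adcy6 and Pde3b had no window to search. Stretches of 30 bases are shown for Prkar1a and for 1 gene each among the receptors, cyclases, catalytic subunits and damping genes, 5′ to 3′ on the strand of the gene, with the motif in capitals (CGTCA is the core read from the opposite strand).
Prkar1a: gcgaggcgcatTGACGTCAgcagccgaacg
Adrb1: gctgcgggagccTGACGcgcggccccgggg
Adcy9: cggacccggcggTGACGtgcgcgggccgcg
Prkacb: ggggcttgaccgCGTCActtccggcgcgcc
Rgs2: ttggggcgtggcTGACGcctccaggtcccg

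The stretch of Prkar1a lies at chr11:109650889-109650918 on the plus strand, with its motif 49 bases before the start of a transcript. Those of Adrb1 (chr19:56722015-56722044, plus strand), Adcy9 (chr16:4420505-4420534, minus strand), Prkacb (chr3:146813031-146813060, minus strand) and Rgs2 (chr1:144004199-144004228, minus strand) place the core 90, 24, 102 and 67 bases before a start. None of these 5 genes was called in the main comparison: Prkar1a, Adcy9, Prkacb and Rgs2 had changes below 0 and Adrb1 had one above 0. The other members with the core lay both ways and were not called. Adcy7, Prkar1b, Gnas, Pde4a and Pde4b had changes of 0.47, 0.17, 0.14, 0.086 and 0.039. Those of Gnai3, Prkaca and Prkar2a were -0.16, -0.018 and -0.30, and Adra2a had no test.

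Of the genes that damp the signal, none was called. Rgs2, which speeds G proteins back to their resting state, stood at 81.1, 64.5, 119 and 55.0 FPKM in WT and 31.3, 44.5, 60.4 and 64.4 FPKM in OGTBKO. OGTBKO 3 and OGTBKO 4 lay among the WT libraries, and the change of -0.66 ± 0.28 had an adjusted p of 0.140. Grk2, the kinase that marks active receptors, stood at 10.7, 11.0, 10.7 and 10.9 FPKM in WT and 14.4, 11.6, 12.5 and 13.1 FPKM in OGTBKO. Each OGTBKO library was above the narrow WT range, by a change of 0.24 ± 0.092 (adjusted p = 0.111). Arrb1, one of the beta-arrestins, had a change of -0.040 (95% interval -0.27 to 0.19), which was 0.068 with FPKM rescaled to the library total.

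Arrb2, the other beta-arrestin, stood at 2.56, 1.67, 1.86 and 1.48 FPKM in WT and 2.08, 3.84, 3.62 and 3.71 FPKM in OGTBKO. OGTBKO 1 lay among the WT libraries and the other 3 OGTBKO libraries above all of them, and the change of 0.66 ± 0.20 missed the threshold (adjusted p = 0.0524). It was called higher without OGTBKO 1 (0.84, adjusted p = 0.0185) and without WT 1 (0.79, adjusted p = 0.0333). Without both libraries numbered 1 Arrb2 was called higher (0.96, adjusted p = 0.00837). Arrb2 is abundant in immune cells, and the summed level of 10 macrophage and immune markers, most of it Lyz2, was 293, 220.2, 143 and 277 FPKM in WT and 198, 506, 391 and 455 FPKM in OGTBKO, low in OGTBKO 1 and high in the other 3. The markers did not lie 1 way: Lyz2 and Cd68 had changes of 0.85 and 0.78, Mrc1 one of -0.62, and Adgre1, Cd14 and Ptprc ones of 0.046, 0.020 and 0.069. None of the 8 markers tested was called by limma, and the part of immune cells in the level of Arrb2 was not tested.

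**Figure D4:**
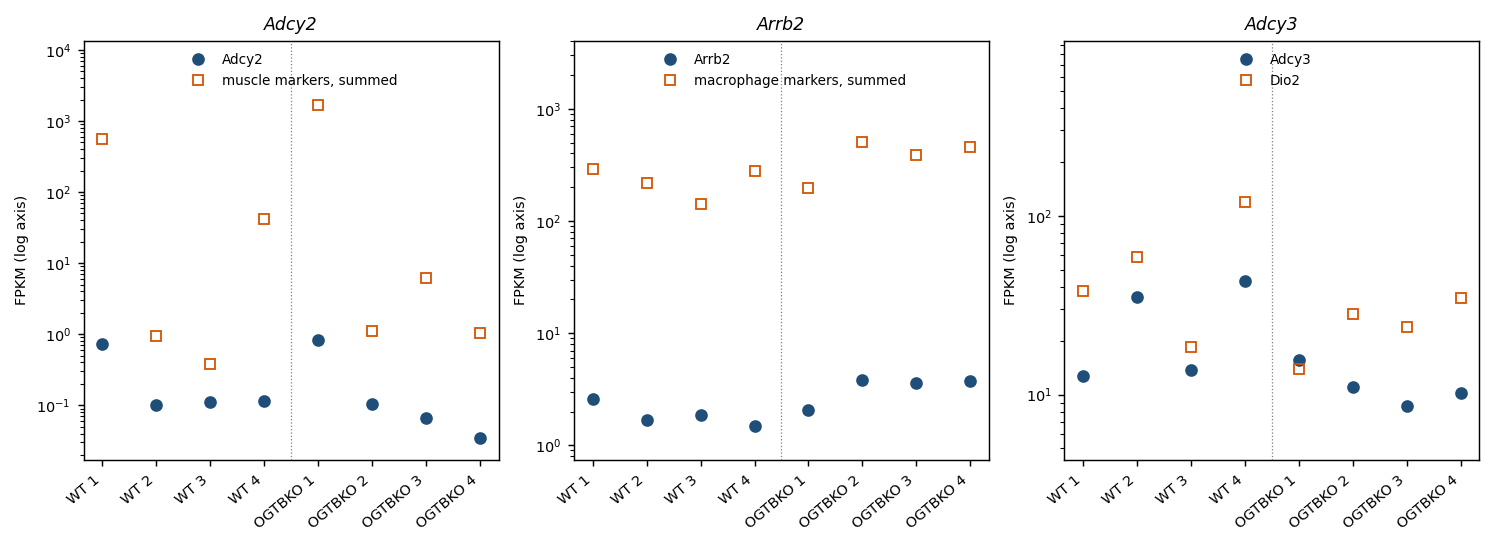
FPKM on a log axis in each of the 8 libraries, with WT left and OGTBKO right of the dotted line, for Adcy2 beside the summed level of 12 skeletal muscle markers, Arrb2 beside the summed level of 10 macrophage and immune markers, and Adcy3 beside Dio2 (filled circles for the gene, open squares for the values beside it). Adcy2 reaches 0.719 FPKM in WT 1 and 0.839 FPKM in OGTBKO 1 where the muscle sum reaches 561 and 1684 FPKM, Arrb2 is 2.08 FPKM in OGTBKO 1 where the macrophage sum is 198 FPKM, and Adcy3 is highest in WT 4 and WT 2, as Dio2 is. Within OGTBKO, Adcy3 is highest and Dio2 lowest in OGTBKO 1.

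Other genes of the cAMP pathway, a list of 71 genes of which 50 were tested, held 3 higher and 7 lower calls, with a median change of -0.068. Among those higher were Akap5, an anchor of PKA at the membrane (0.88, adjusted p = 0.0204), and Pde12, a phosphodiesterase of mitochondria that acts on RNA rather than cAMP (0.50, adjusted p = 0.0176). Akap5 was low, at 0.134 to 0.388 FPKM in WT and 0.663 to 1.12 FPKM in OGTBKO. Among those lower were Atf2, a factor that p38 MAP kinase phosphorylates (-0.54, adjusted p = 0.0166), the anchors Akap11 (-0.41, adjusted p = 0.0250) and Akap13 (-0.47, adjusted p = 0.0348), and the CREB-like gene Crebl2 (-0.50, adjusted p = 0.0280). Also lower were Rgs4, a brake on inhibitory G proteins (-0.52, adjusted p = 0.0344), and Pde1a, a phosphodiesterase that calcium activates (-0.74, adjusted p = 0.0432). The 10 calls among 50 genes stand beside 15.6% of all genes.

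Genes known to answer to cAMP in brown fat, 25 with 22 tested, held 1 higher and 5 lower calls, with a median change of -0.13, where 8.11% of all genes were called higher and 7.46% lower. Ppargc1a, the coactivator of mitochondrial genes, stood at 12.6, 13.1, 12.0 and 16.8 FPKM in WT and 6.26, 6.89, 7.17 and 8.36 FPKM in OGTBKO, without overlap (change -0.87, adjusted p = 0.00628). Ucp1 stood at 1775, 2524, 1512 and 2392 FPKM in WT and 1026, 904, 1096 and 998 FPKM in OGTBKO, also without overlap (change -1.0, adjusted p = 0.0113). The other lower calls were Nr4a3, an orphan nuclear receptor (-1.40, adjusted p = 0.0168), Pck1, which feeds glycerol synthesis in fat (-1.10, adjusted p = 0.0169), and the clock gene Per1 (-0.83, adjusted p = 0.0480). Junb, a subunit of the AP-1 factor, rose (1.09, adjusted p = 0.0178), while Fos, Nr4a1 and Dio2, which cAMP also induces, were not called. The uncalled targets lay both ways. Elovl3, Egr1 and Atf3 had changes of 1.75, 1.27 and 0.72, and Irf4, Dio2 and Lpl ones of -0.96, -0.96 and -0.29. Fgf21, under the filter, ranged from 0 to 0.193 FPKM in WT and from 0.320 to 1.11 FPKM in OGTBKO. Over 19 other analyses Per1 fell short of the threshold in 12, Ucp1, Nr4a3 and Junb in 3 each, Pck1 in 2 and Ppargc1a in 0.

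PKA-dependent lipolysis, 12 genes all tested, held 1 call each way and a median change of 0.097. That is near the shares over all genes, 8.11% called higher and 7.46% lower. Lipe, hormone-sensitive lipase, stood at 100, 96.4, 116 and 100.4 FPKM in WT and 180.3, 131, 165 and 151 FPKM in OGTBKO and rose by 0.60 (adjusted p = 0.0165). Plin5, which holds lipases at the droplet beside mitochondria, fell by 0.71 (adjusted p = 0.0100), from 77.8 to 102 FPKM in WT to 47.5 to 58.9 FPKM in OGTBKO. Both genes showed no overlap between groups. The p38 MAP kinase arm, which runs from PKA to Ppargc1a, held 0 higher and 1 lower call by limma among 9 genes tested (Atf2). Among 12 nerve and Schwann cell markers, Th and Dbh, the genes of noradrenaline synthesis, and Prph were at or near 0 in every library, Slc6a2, the noradrenaline transporter, ranged from 0 to 0.155 FPKM in WT and from 0.00968 to 0.0571 FPKM in OGTBKO, and Uchl1 and Tubb3 were detected in all 8 libraries but under the filter.

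Base composition moved with the calls over all genes and touches some members. Of the genes tested, 16.7%, 7.11%, 4.10% and 1.91% were called lower in 4 equal bins from the lowest to the highest GC content, which held 9, 5, 8 and 16 members. All 9 members in the lowest bin were below 0, as were 4 of 5, 4 of 8 and 7 of 16 in the others. How many of all genes in each bin lay below 0 was not counted, so these counts have no background. Of all genes in the lowest bin 2.67% were called higher, and of those in the highest bin 13.9%. Pde3b (38.7% GC) and Creb1 (45.2% GC) lie in the lowest bin, and both lost their calls when the trend over GC and length was removed from each library, as did Pde4d (49.9% GC, change -0.59, adjusted p = 0.0940) in the second bin. Adcy6 (57.7% GC) and Adcy4 (56.2% GC) lie in the highest bin, where few genes were called lower, and with the trend removed their changes were -0.92 (adjusted p = 0.00843) and -0.77 (adjusted p = 0.0135).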

How the data were processed

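RNA of 8 brown fat samples, 4 WT and 4 OGTBKO, was made into libraries with a NEBNext Ultra kit, per the labels' protocols. Per the submitters' processing notes, mm10 and the tools featureCounts 1.5.0-p3 (Subread) and HISAT2 2.0.5 were used. The annotation was not given in the sources used here, nor was the strand setting. The authors deposited FPKM values (fragments per kilobase, scaled for depth) for 54532 genes. In every library 100% of the deposited FPKM values were whole multiples of 1 read (tolerance 0.001), and their denominators were 0.790 to 1.13 times the library total, so libraries were already scaled against each other. A single read over 1 kb amounts to 0.0556 to 0.0945 FPKM. Libraries of a group differed by a chi-square per degree of freedom of 17.55 to 110.8 over genes, so no library was a copy of another in its group. The largest values were those of WT 3 with WT 1, WT 2 and WT 4, at 62.39, 73.14 and 110.8.

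From these values, log2(FPKM + 0.5) was fitted with limma 3.58.1 in R 4.3.3 (moderated test with a mean-variance trend, two-sided, no covariates) over 13171 genes with a mean of at least 0.5 FPKM, with Benjamini-Hochberg adjustment over all of them. This scale understates changes of low genes. The fit was tried on simulated reads with noise independent between genes, which leaves out trends over GC and effects shared within a library. Gene identifiers matched GENCODE M21 in 99.9% of cases, 98.3% with the same coordinates, and GC content came from its transcripts. The members and lists were chosen with earlier results of these data known. Values in every library are given for members that were called or whose groups did not overlap, and for Adrb3, Adrb1, Adra1a, Gnas, Adcy3, Prkaca, Prkar2b, Pde4b, Crem and Rgs2; of other lists up to 8 called genes each, by p, and Ucp1, Ppargc1a, Dio2 and Lipe. Another gene of that rule is not reported here. Arrb2, Adcy2 and Prkar1a's promoter were singled out after their values were seen. Alternatives changed the pseudocount, the filter, the denominator, base composition, the block, library weights and the libraries used.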

Additional observations from a re-analysis of the deposited data

Results flagged for a closer look

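In 8 cases 1 library of a group lay far from the other 3, with a gap to its neighbour that, over the group's range, exceeded Dixon's 95% critical value for 4 samples. Chance flags about 1 in 20 groups, and 82 groups were looked at. Adrb1 in OGTBKO 4 was 17.9 FPKM, against 12.5 to 12.7 FPKM in the other OGTBKO libraries. Adora1 in WT 3 was 27.3 FPKM, against 10.3 to 12.2 FPKM, and Crebbp in WT 3 was 3.36 FPKM, against 2.74 to 2.81 FPKM. WT 3 was also the library with the highest mitochondrial share of reads (39.4%) and the lowest ratio of FPKM denominator to library total (0.790). Adcy2 was 0.719 FPKM in WT 1, against 0.0995 to 0.116 FPKM, and 0.839 FPKM in OGTBKO 1, against 0.0341 to 0.103 FPKM, and these are the libraries with the most skeletal muscle transcripts (561 and 1684 FPKM summed over 12 markers, against 41.2 FPKM in WT 4, where Adcy2 was 0.116 FPKM). Pde3a in OGTBKO 3 was 1.24 FPKM, against 2.09 to 2.18 FPKM, and Pde4d in OGTBKO 4 was 10.1 FPKM, against 6.26 to 6.73 FPKM. Arrb2 in OGTBKO 1 was 2.08 FPKM, against 3.62 to 3.84 FPKM.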

How the results depend on the processing

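Over 19 other analyses, 30 of the 38 members tested kept their direction in each one, among them all 5 called genes, and 16 uncalled members passed in at least 1. All genes called numbered 2050, against 1229 without a filter, 1237 with FPKM rescaled to the library total (987 higher and 250 lower, against 1068 and 982; the median of all genes was then 0.094), 1359 with the GC and length trend removed, 3516 with array weights, and 692 to 2122 without 1 library. Members called higher numbered 2 above a mean of 2 FPKM, 4 with array weights, 1 without both libraries numbered 1 (chosen after seeing the data), and 0 to 3 without 1 library. Members called lower numbered 2 without a filter, 1 with the library total, 3 with the GC trend removed, 12 with array weights, and 2 to 6 without 1 library. The cause of these shifts was not tested. Changes of sign were Adrb3 -0.13 and Adra1d -0.057 with the GC trend removed, with or without the block; Gnas -0.045 and Pde4a -0.086 without both libraries numbered 1; Pde4a -0.042 with array weights; and Prkaca 0.097 and Arrb1 0.068 with the library total. Without 1 library, changes ranged from -0.14 to 0.27 for Adrb3, -0.00071 to 0.21 for Gnas, -0.52 to 0.13 for Adcy5, -0.12 to 0.080 for Prkaca, -0.019 to 0.15 for Pde4a, -0.023 to 0.093 for Pde4b and -0.088 to 0.020 for Arrb1.

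Same-numbered samples correlated in their deviations at 0.220, 0.169, 0.0143 and -0.00696. Samples numbered 1 and 2 correlated best with their own number, and those numbered 3 and 4 did not (WT 3 with OGTBKO 4 at 0.125). With so few samples these values do not settle whether the numbers pair them. With the replicate block 888 genes were called, 0 members higher and 1 lower (Adcy4), and with the replicate block and the GC trend removed 516 genes, 2 members lower (Adcy6 and Adcy4). Limma voom on recovered reads, chosen after seeing the data, called 2322 genes. The planned negative binomial tests were not run, since the deposited unit is FPKM.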
